A study of Marchantia polymorpha with 6 samples.

Results

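The genes described here are the 100 whose transcript levels differed most between 3 wild-type plants of Marchantia polymorpha. They were taken from 19287 gene models by a rule on read counts scaled to the library's total count (CPM). A gene was eligible with a mean of at least 5 CPM over the wild-type plants and a mean that differed less than 8-fold between wild type and mutant, which left 10370 genes. From these the 100 with the highest coefficient of variation (CV, the SD over the mean) across the wild-type plants were kept. Because that spread chose the genes, the Tak-1 values are given as a description. The question with an independent measure is whether the genes also varied between the mutant plants, which the rule used only for the 8-fold limit on the mean. Comparisons of the genotypes rest on the same Tak-1 values and are described only.

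The wild type is the laboratory accession Tak-1, a male plant line, and the mutant, Mpbes1, carries a CRISPR/Cas9 edit in the BES1 gene, which codes for a transcription factor. The growth protocol names Tak-1 for the samples of both genotypes. Poly(A) RNA was sequenced from 3 untreated plants per genotype, all 30 days old and grown on Gamborg's B5 medium with 1% agar under white light of 50 µmol/m2/s. Days had 16 light hours at 22 °C, and the 8 h nights were kept at 20 °C. The tissue was thallus with apical notches, about 100 mg per sample, and the RNA integrity numbers were above 7. The sources used here do not say how many independent mutant lines the 3 Mpbes1 plants represent.

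Marchantia is a liverwort whose main body is a flat, haploid thallus that grows from notches at its tips. It also multiplies through gemmae, small asexual propagules formed in cups on the thallus. BES1 belongs to the BES1/BZR1 family of transcription factors, known in flowering plants from brassinosteroid signalling. A thallus holds photosynthetic chambers, rhizoids, storage tissue, oil body cells and meristematic notches. In bulk RNA, fewer cells of a type and less RNA per cell cannot be told apart.

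The deposited identifiers are not paired with gene names: 0 of the 19287 identifiers occur in the RefSeq gene table used here, which describes another assembly. The genes are therefore identified by position and structure, with no function given, and the tissue could not be checked against marker genes. Coordinates are those of the deposited table. The 6 libraries held 11597664 to 17741253 counts, with rank correlations between plants from 0.991 to 0.997 for the same genotype and from 0.926 to 0.941 across them. The spread between plants was larger in Tak-1, with a biological CV of 10.5% by edgeR against 6.95% in Mpbes1, and over eligible genes the median CV was 8.01% in Tak-1 and 5.67% in Mpbes1.

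In most of the 100 genes 1 wild-type plant, plant 2, stood above the others. Plant 2 had the highest level in 83 of them, plant 3 in 14 and plant 1 in 3. Over all eligible genes the shares were 39.0%, 24.9% and 36.1%, so over all of them plant 2 led little more often than plant 1. Plant 1 was the lowest of the 3 in 72 of the 100, plant 3 in 22 and plant 2 in 6, against 28.5%, 42.0% and 29.5% of eligible genes. Summed over the 100 genes, the level was 1801 CPM in plant 1, 3884 CPM in plant 2 and 2482 CPM in plant 3. In Mpbes1 the same sum was 2023, 1969 and 2085 CPM. The mutant plants differed little in the sum, and all 3 lay between wild-type plants 1 and 3. The place of the mutant sums rests largely on 2 genes. A gene on scaffold_371 had 421, 410 and 394 CPM in Mpbes1, against 101, 104 and 188 CPM in Tak-1. Another on scaffold_56 had 187, 170 and 177 CPM, against 33.5, 41.1 and 19.1 CPM. Gene by gene the list was mostly lower in Mpbes1, with a median log2 fold change of -0.89, against 0.007 over all genes tested. The lead of plant 2 is a description, because its values helped to choose the genes. A list of 100 chosen without plant 2 shared 28 genes with this one, and plant 2 was the highest in 32% of that list. Such a list takes genes in which plants 1 and 3 lie far apart. Its share therefore cannot show whether the lead depends on the choice. Chosen without plant 1, a list was lowest in plant 1 in 41% of its genes, with the same limit. Among the 100 eligible genes with the highest CV over Mpbes1, 19 of them on this list, plant 2 was the highest wild-type plant in 66.

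**Figure D1:**
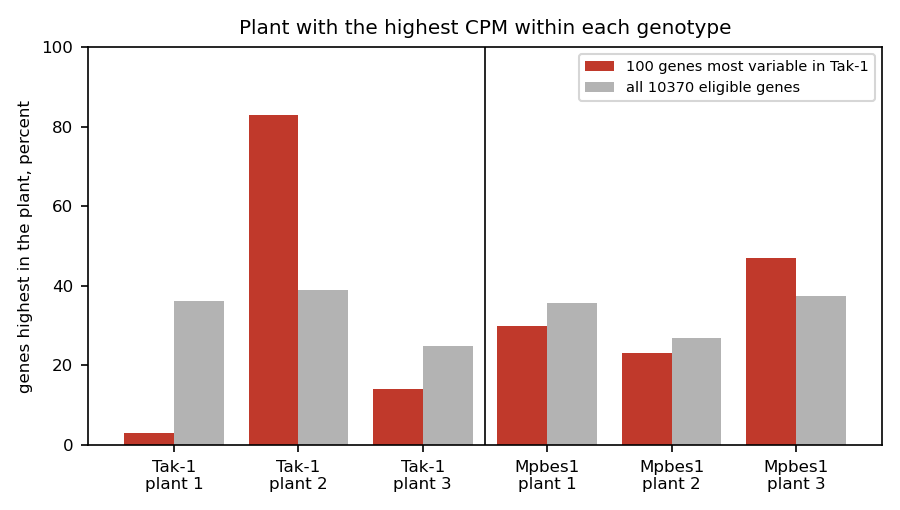
Share of genes (y axis, percent) whose CPM was highest in each plant within its genotype (x axis), for the 100 genes most variable in Tak-1 (red) and all 10370 eligible genes (grey). Plant 2 led in 83% of the 100 genes and in 39.0% of eligible genes, while in Mpbes1 plant 3 led in 47% and 37.5%.

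The CV of the 100 genes ran from 35.2% to 101%, with a median of 43.7%, and the highest wild-type level was 1.86 to 7.91 times the lowest, with a median of 2.36 times. Most of the genes were weakly expressed. Their median level in Tak-1 was 12.6 CPM, against 40.6 CPM over eligible genes, and 60 of the 100 lay in the lowest of 5 equal classes of expression, up to 15.7 CPM. For 16 of them only 1 plant reached 5 CPM, so that the mean passed the limit through the plant that was high. The CV was at least 2.85 times what counting error predicts, with a median ratio of 6.46, values that the choice of the highest CVs helps to set. At the limit of the list the last 3 genes taken had CVs of 35.3%, 35.3% and 35.2%, and the first 3 left out had 35.0%, 34.9% and 34.8%. The last gene taken, on scaffold_98 from 338353 to 341177, had 3.97, 7.47 and 4.55 CPM in Tak-1. The first left out, on scaffold_121 from 242786 to 246188, had 16.2, 22.9 and 11.2 CPM.

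**Figure D2:**
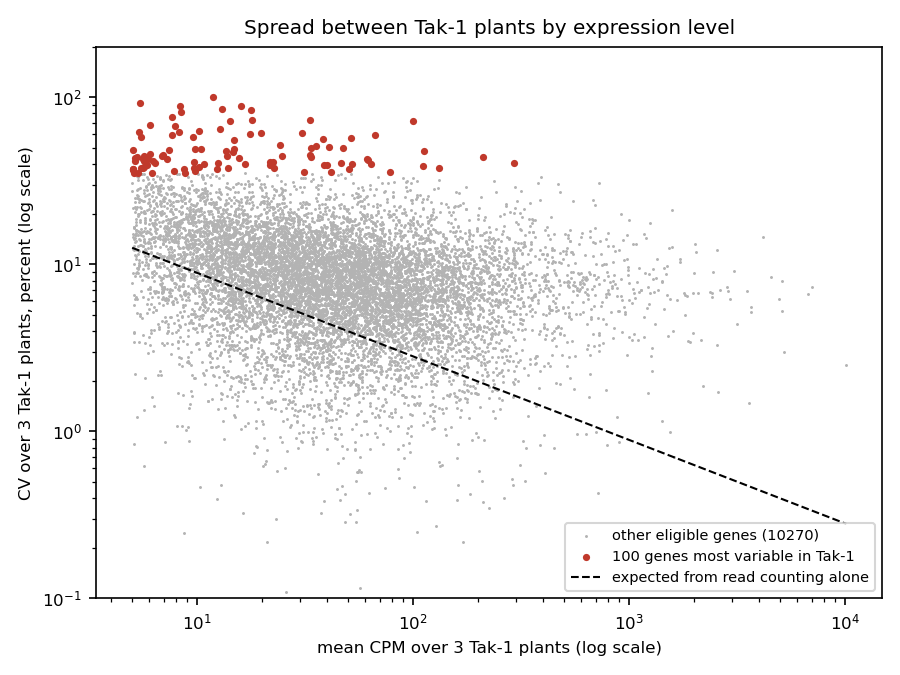
CV over the 3 Tak-1 plants in percent (y axis, log scale) against the mean Tak-1 level in CPM (x axis, log scale), 1 point per eligible gene, with the 100 most variable in red and the CV expected from read counting alone as a dashed line. The 100 genes lie above 35% at every level and crowd at the low end, 60 of them up to 15.7 CPM.

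The patterns over the 3 wild-type plants were sorted after their values were seen, by whether the ordered values were separated by a gap of at least 1.5 times. Plant 2 alone was high in 55 genes, and plant 1 alone was low in 20. A gap at each of both steps was found in 12 genes, 11 of them highest in plant 2. Plant 3 alone was high in 8 and alone low in 3, and plant 1 alone was high in 2. Genes with plant 2 alone low numbered 0 among the 100 and 15 among all eligible genes. Over the 10370 eligible genes, which include the list, plant 2 alone was high in 103 and plant 3 alone in 19. Of these, 55 and 8 were on the list, so the eligible genes left out that had such a gap also leaned towards plant 2. The gap is itself a large spread in Tak-1, so this is a description as well.

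**Figure D3:**
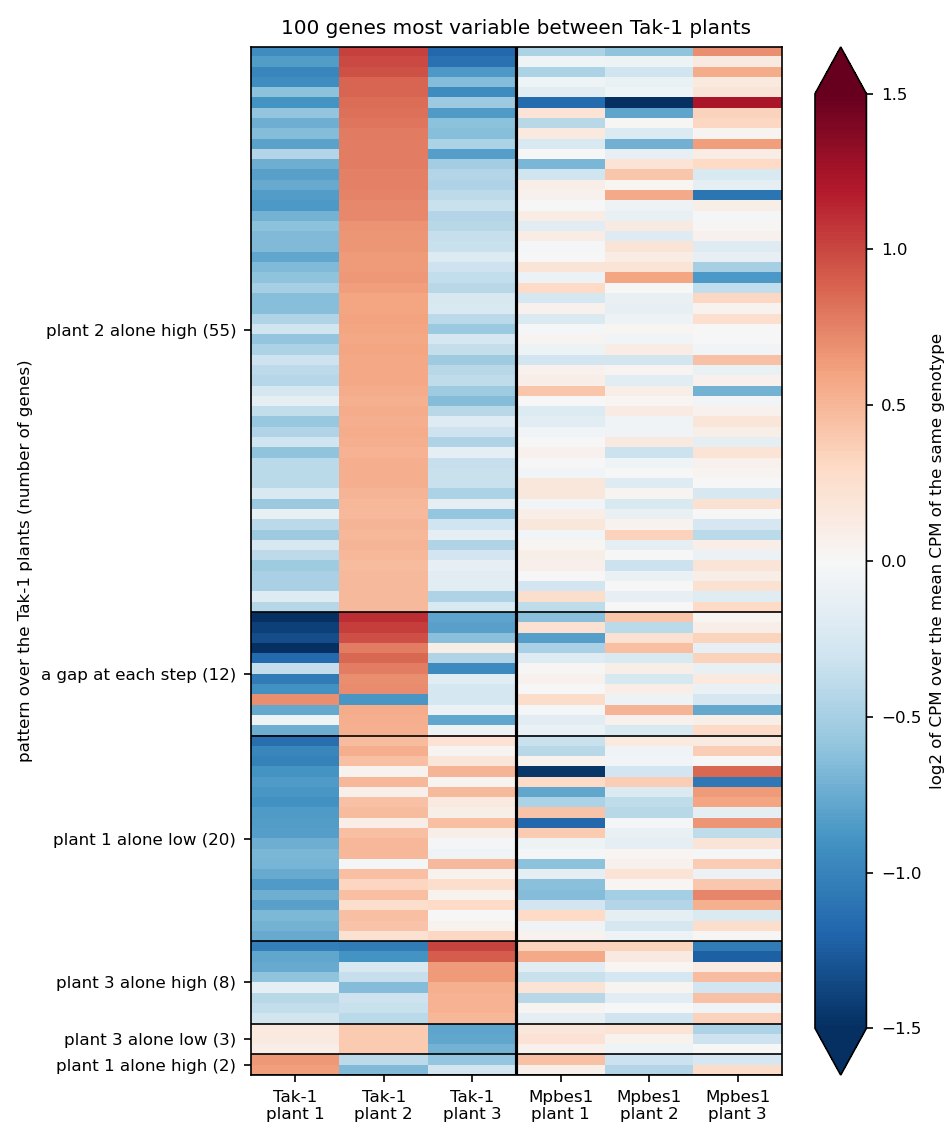
Each row is 1 of the 100 genes and each column 1 plant; colour is the log2 of the CPM over the gene's mean CPM in the same genotype (red higher, blue lower), with rows grouped by their pattern in Tak-1 and ordered by CV within a group. In the top group of 55, plant 2 is the reddest Tak-1 column in every row, while the Mpbes1 columns are paler in most rows; 92 of the 100 genes had a lower CV in Mpbes1 than in Tak-1, and single rows in several groups are strongly coloured in Mpbes1.

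The gene with the largest spread lies on the plus strand of scaffold_69, from 1062390 to 1064638, with 3 exon blocks (exons merged where isoforms overlap). Its level was 3.23 CPM in plant 1, 25.6 CPM in plant 2 and 6.87 CPM in plant 3 of Tak-1, a CV of 101%. In Mpbes1 it was 3.71, 7.67 and 5.86 CPM. Plant 2 stood apart in the wild type, and the mutant values fell within the range of the other wild-type plants or just above it.

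Among the 20 genes with the highest CV, all at or above 60.9%, plant 2 was the highest in 18 and plant 3 in 2. A gene of 17 exon blocks on the minus strand of scaffold_23, from 911799 to 917704, had 44.7, 183 and 73.6 CPM in Tak-1 plants 1, 2 and 3, and 25.4, 24.9 and 36.9 CPM in Mpbes1. On scaffold_122 from 306231 to 310511, a gene of 3 exon blocks had 17.6, 61.5 and 21.4 CPM in Tak-1 and 17.7, 17.2 and 20.5 CPM in Mpbes1. For this gene the Mpbes1 plants lay close to wild-type plants 1 and 3, and plant 2 was alone. A gene on scaffold_15, from 1517106 to 1519305, had 7.27, 25.8 and 6.01 CPM in Tak-1 and 2.16, 2.13 and 2.48 CPM in Mpbes1. Its CV was 85.1% in the wild type and 8.59% in the mutant, where counting error predicts 18.1%. The gene on scaffold_8 from 2457631 to 2460379 had 7.05, 34.8 and 11.5 CPM in Tak-1 and 2.59, 5.37 and 5.81 CPM in Mpbes1. Its mutant CV was 38.1%, a spread that the edgeR goodness of fit described below did not call (adjusted p = 0.27). On scaffold_140, from 172551 to 174489, plants 2 and 3 were both above plant 1, with 4.34, 30.4 and 19.1 CPM, and Mpbes1 had 7.67, 14.7 and 9.92 CPM. This was 1 of the genes with plant 2 highest in both genotypes. Further genes among these 20 were also highest in plant 2. On scaffold_54, from 1156568 to 1162469, the levels were 8.45, 32.6 and 7.12 CPM in Tak-1 and 2.76, 2.53 and 6.20 CPM in Mpbes1. A gene on scaffold_49 from 147887 to 149500 had 18.4, 52.0 and 21.3 CPM in Tak-1 and 6.38, 11.9 and 12.6 CPM in Mpbes1. In both, every mutant plant lay below every wild-type plant. On scaffold_14, from 1596430 to 1602334, Tak-1 had 7.64, 22.2 and 8.33 CPM and Mpbes1 3.79, 5.14 and 6.31 CPM. A gene on scaffold_1 from 1178579 to 1181508 had 5.22, 14 and 4.38 CPM in Tak-1 and 2.67, 1.34 and 2.93 CPM in Mpbes1. The levels on scaffold_59, from 754707 to 755982, were 3.09, 9.18 and 3.86 CPM in Tak-1 and 0.776, 0.553 and 1.41 CPM in Mpbes1. These 3 were also below the wild type in every mutant plant. Elsewhere the mutant plants lay between plant 2 and the others. A gene on scaffold_24 from 345046 to 348678 had 9.26, 25.8 and 7.38 CPM in Tak-1 and 14.1, 15.1 and 18.0 CPM in Mpbes1. On scaffold_2, from 950093 to 952358, Tak-1 had 5.29, 14.2 and 5.32 CPM and Mpbes1 7.76, 6.09 and 7.21 CPM. In 12 of these 20 genes all Mpbes1 plants lay below all Tak-1 plants, and in 0 above, against 22.1% and 30.9% of eligible genes.

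Higher expressed members showed the same lead of plant 2. The gene with the highest Tak-1 mean lies on the minus strand of scaffold_7, from 2625441 to 2632103, with 14 exon blocks. It had 177, 414 and 289 CPM in Tak-1 and 186, 179 and 225 CPM in Mpbes1. The gene on scaffold_129 from 308105 to 313300 had 140, 316 and 176 CPM in Tak-1 and 133, 126 and 128 CPM in Mpbes1. It was steady in the mutant, with a CV of 2.86%, against 44.2% in the wild type. It overlaps another model on the same strand, so its reads may have been counted in part for that model. A high plant 2 with a flat mutant was also seen on scaffold_68 from 108782 to 111394, at 16.3, 31.5 and 17.2 CPM in Tak-1 and 23.3, 23.9 and 24.5 CPM in Mpbes1. Here the mutant level lay between that of plant 2 and those of the others. The mutant CV of 2.59% was below the 5.56% that counting error predicts.

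Over the 55 genes with plant 2 alone high, plant 2 stood at 1.72 to 4.18 times the mean of plants 1 and 3, with a median of 2.01 times. Plants 1 and 3 were close to each other in these genes, with a median ratio of 1.20 of the larger over the smaller value. The sums were 982, 2194 and 1098 CPM in Tak-1 and 880, 854 and 888 CPM in Mpbes1. For 46 of the 55 the Mpbes1 mean was nearer, on the log2 scale, to the mean of plants 1 and 3 than to plant 2, against 58.9% of eligible genes. Both shares are descriptions, because plant 2 was far from the others in each of the 55 by choice. A mutant mean below all 3 wild-type plants also counts as nearer to plants 1 and 3. The Mpbes1 sums lay below all 3 Tak-1 sums.

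Of the other 45 genes, 28 were highest in plant 2, 14 in plant 3 and 3 in plant 1. Both genes with plant 1 alone high, on scaffold_106 from 437846 to 441744 and on scaffold_78 from 544561 to 555893, also differed in all plants between the genotypes. The first had 16.2, 7.93 and 6.95 CPM in Tak-1 and 4.57, 2.69 and 2.82 CPM in Mpbes1. The second had 21.0, 8.63 and 11.2 CPM in Tak-1 and 41.6, 29.2 and 47.5 CPM in Mpbes1. Their genotype differences had opposite signs, the first below the wild type in every mutant plant and the second above it. A gene on scaffold_193 from 75846 to 77262 was highest in plant 3, at 28.1, 40.2 and 73.6 CPM, with 23.1, 26.3 and 28.2 CPM in Mpbes1. On scaffold_1, from 1397159 to 1400892, plant 1 was highest and plant 2 lowest, with 24.0, 8.09 and 12.4 CPM in Tak-1 and 12.2, 9.56 and 8.45 CPM in Mpbes1.

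Whether the spread persisted in the mutant was asked of the Mpbes1 plants, whose spread the rule had not used. The 100 genes varied more than other genes in Mpbes1 too, but less than they did in Tak-1. Their median CV over Mpbes1 was 17.9%, against 5.67% over all eligible genes and 43.7% for the same 100 genes in Tak-1. The CV was lower in Mpbes1 than in Tak-1 for 92 of the 100, and for 65.0% of eligible genes. A fall from the wild-type value is built into the choice of the genes, which took the highest Tak-1 CVs. The top 10% of eligible genes by Mpbes1 CV, from 14.2% upwards, held 57 of the 100 genes, where 10% of all eligible genes lie by construction. The top 100 by Mpbes1 CV held 19 of them, or 19% of each list.

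Weak genes have more counting error, which enters the CV. In Mpbes1 counting alone predicted a median CV of 10.4% for the 100 genes and 4.20% for eligible genes, and the measured CV was a median 1.86 and 1.36 times that prediction. For 20 of the 100 the Mpbes1 CV was no larger than counting error predicts, against 33.0% of eligible genes. The 100 genes were weaker still in the mutant, with a median of 6.90 CPM against 41.8 CPM over eligible genes, so they were also set beside genes of like level in Mpbes1. In the lowest of 5 equal classes cut on the Mpbes1 mean, up to 16.5 CPM, the 74 genes of the list had a median CV of 22.4%, against 10.2% for all 2074 eligible genes of the class. Of these 74, 31 lay in the top 10% of the class. They were weaker than the class as a whole, with a median of 5.01 against 10.2 CPM and a predicted counting CV of 12.1% against 8.53%. In the next class, up to 32.0 CPM, where levels were alike, the 16 genes of the list had 9.75% against 6.72%, with 6 in the top 10%. The 3 higher classes held 5, 1 and 4 genes of the list, of which 2, 0 and 1 lay in the top 10%. Their median CVs were 7.10%, 4.35% and 4.03%, against 5.23%, 4.33% and 4.17% for all eligible genes of those classes. The larger CV of the list was thus not seen in the highest classes, where it had few genes. Without Mpbes1 plant 3, the median CV of the 100 genes was 9.34% and that of eligible genes 3.97%, and without any 1 plant the CV rests on the other 2.

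**Figure D4:**
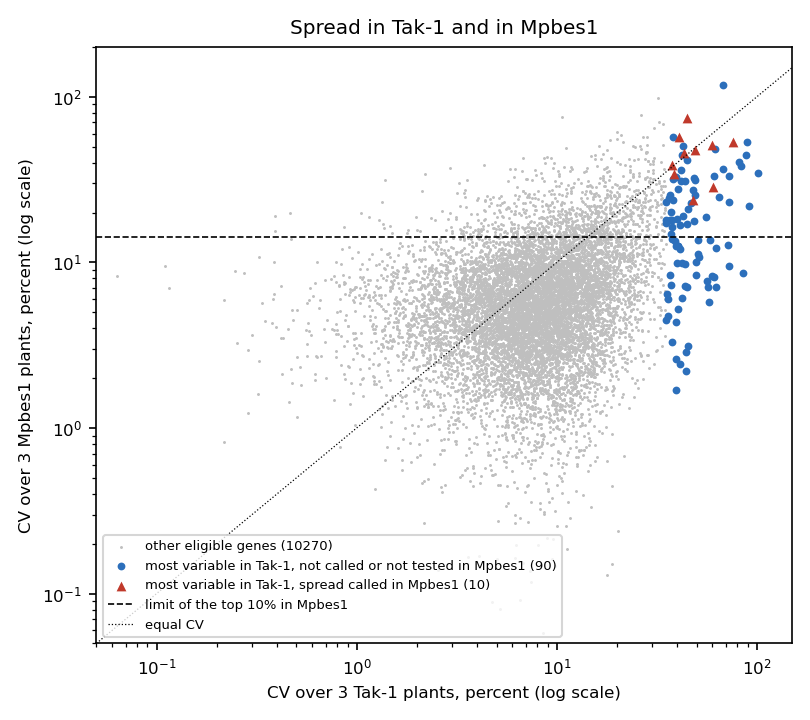
CV over the 3 Mpbes1 plants (y axis) against CV over the 3 Tak-1 plants (x axis), both in percent on log scales, 1 point per eligible gene. The 100 genes (blue points, red triangles where edgeR called the Mpbes1 spread) lie at the right by choice; 57 lie above the dashed limit of the top 10%, at 14.2%, and most lie below the dotted line of equal CV.

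A test of spread in Mpbes1 asked for each gene whether its counts varied more than those of genes of like level, with edgeR's negative binomial goodness of fit at the trended dispersion. Of the 97 genes of the list that could be tested, 10 passed 0.05 after Benjamini-Hochberg adjustment. Over all 11755 genes tested, 1.79% were called, and among the eligible genes tested 1.34%. The same fit on Tak-1 called 65 of the 100 against 1.39% of all genes tested, a description only, since that spread chose the genes. The call in Mpbes1 rested on the 3 plants together: without plant 1, 2 or 3, the called genes of the list numbered 4, 4 and 2, and those of all genes 0.927%, 0.728% and 0.618%. Among the 10 genes, plant 3 was the highest in 5 and the lowest in 4. In the 139 called eligible genes it was highest or lowest in 95.7%, and over all eligible genes in 73.4%. Plant 3 was also the deepest library, with 17741253 counts, and the part of depth in these calls was not tested.

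The 10 called genes did not share 1 pattern in Tak-1. Plant 1 alone was low in 5, plant 2 alone was high in 3, and plant 3 and plant 1 alone were high in 1 each. The smallest adjusted p of the spread test, 0.00074 by edgeR, was found for a gene of 5 exon blocks on scaffold_282, from 4084 to 6346. It had 7.35, 14.2 and 19.6 CPM in Tak-1 and 1.12, 2.53 and 5.58 CPM in Mpbes1. A gene on scaffold_21 from 1489757 to 1495486 had 61.6, 138 and 133 CPM in Tak-1 and 12.8, 20.3 and 26.3 CPM in Mpbes1, with an edgeR adjusted p of 0.0015 for the mutant spread. For both genes plant 1 was the lowest in each genotype and the genotypes did not overlap. On scaffold_465, from 1508 to 3094, the levels were 12.5, 24.0 and 30.6 CPM in Tak-1 and 1.47, 3.24 and 5.24 CPM in Mpbes1, again with plant 1 lowest in each. By contrast, a gene on scaffold_147 from 396137 to 399864 was highest in plant 2 of each genotype, at 9.99, 29.6 and 13.0 CPM in Tak-1 and 20.7, 33.7 and 21.6 CPM in Mpbes1.

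The 3 largest CVs in Mpbes1 belonged to weak genes. The gene on scaffold_54 from 1210850 to 1213783 had 3.23, 10.7 and 4.12 CPM in Tak-1 and 0.345, 0.158 and 1.80 CPM in Mpbes1. Its mutant CV of 117% rests on 4, 2 and 32 counts, and it was too weak for the spread test. Next came the gene on scaffold_282, with a CV of 74.1%, and a gene on scaffold_124 from 290588 to 293314, with 57.3%. The latter had 6.10, 13.8 and 10.6 CPM in Tak-1 and 1.64, 1.82 and 4.28 CPM in Mpbes1. The smallest mutant CV, 1.69%, was that of a gene on scaffold_70 from 745432 to 747275, where counting error predicts 4.51%. Near it was a gene on scaffold_189 from 100794 to 104419. This gene had a CV of 44.3% in Tak-1, at 4.63, 8.56 and 3.86 CPM. In Mpbes1 its CV was 2.19%, at 8.02, 8.38 and 8.23 CPM, where counting error predicts 9.49%. Its 3 mutant plants lay at the level of wild-type plant 2 and were alike to within counting error.

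The replicate numbers name different plants in each genotype, and the labels do not say that equal numbers share a batch. The highest plant had the same number in both genotypes in 34 of the 100 genes, against 36.2% of eligible genes. In Mpbes1 plant 3 was highest in 47 of the 100, plant 1 in 30 and plant 2 in 23, and over eligible genes the shares were 37.5%, 35.7% and 26.8%. Of the 55 genes with plant 2 alone high, 26 were highest in plant 3 of Mpbes1 and 13 in plant 2. These genes were the flatter ones in the mutant, with a median CV of 12.6% and 3 of 53 called for spread. The 20 genes with plant 1 alone low had a median CV of 29.5% in Mpbes1, 5 of 20 were called for spread, and 10 were lowest in plant 1 and 11 highest in plant 3. In 8 of these 20 Mpbes1 plant 1 was lowest and plant 3 highest, against 17.8% of eligible genes. Their median Tak-1 level was 8.03 CPM, against 14.8 CPM in the group of 55, and the median CV predicted from counting was 12.4% against 9.19%.

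A few of the 100 genes lay side by side. In the order of eligible genes along each scaffold, 15 of the 100 had another of the 100 next to them, and 1.71% of all eligible genes did. They formed 7 groups with 8 neighbouring pairs, which include a model lying inside another on the same strand of scaffold_126. In the order of all gene models, 12 of the 100 had another of the 100 next to them. In 7 of the 8 pairs both genes were highest in the same wild-type plant, against 36.9% of eligible neighbouring pairs, a match that the frequent lead of plant 2 among the chosen genes helps to set. In Mpbes1, where the rule did not choose the highest plant, both genes were highest in the same plant in 6 of the 8, against 36.2%. Within 50 kb of another of the 100 lay 24 genes, against 4.40% of eligible genes. The rest were scattered, with the 100 genes on 67 sequences and at most 4 on one. When the list was chosen without Tak-1 plant 2, 8 of 100 genes had a neighbour from the list, against 15 in the list as chosen.

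**Figure D5:**
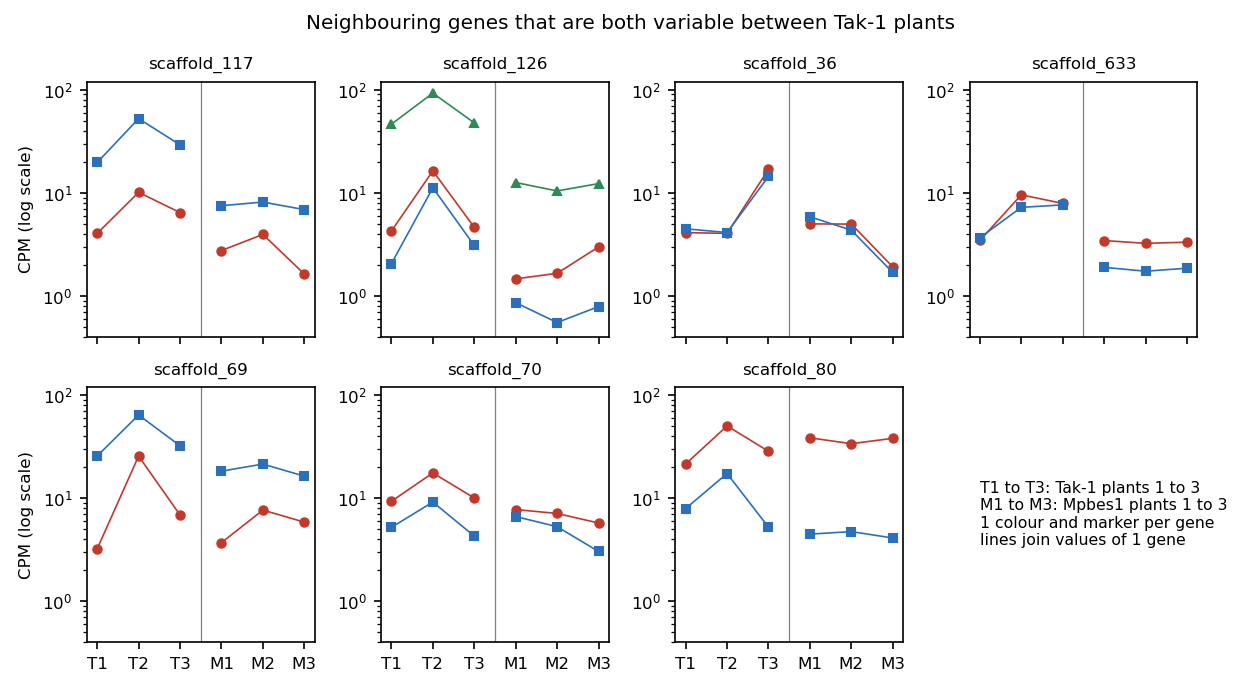
CPM (y axis, log scale) of each gene in the 7 groups of neighbouring genes, by plant (x axis: T1 to T3 are Tak-1 plants 1 to 3, M1 to M3 Mpbes1 plants 1 to 3), 1 colour per gene. Plant 2 of Tak-1 is the peak in 5 of the 7 groups; on scaffold_36 both genes peak in Tak-1 plant 3, at 16.9 and 14.4 CPM, and are lowest in Mpbes1 plant 3.

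The pair on scaffold_36 ran against the general lead of plant 2. A gene on the minus strand from 126112 to 128277 had 4.11, 4.04 and 16.9 CPM in Tak-1 and 5.0, 4.98 and 1.92 CPM in Mpbes1. Its neighbour on the plus strand, from 132232 to 134085 and 3954 bases away, had 4.48, 4.12 and 14.4 CPM in Tak-1 and 5.86, 4.35 and 1.69 CPM in Mpbes1. Plant 3 was thus the high plant in the wild type and the low plant in the mutant for both genes. In Mpbes1 the second was called for spread (edgeR adjusted p = 0.0084) and the first was not (edgeR adjusted p = 0.056).

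On scaffold_126 a group of 3 lay within the first part of the scaffold, on the plus strand. The model from 8444 to 20090 had 4.26, 16.3 and 4.63 CPM in Tak-1 and 1.47, 1.66 and 2.99 CPM in Mpbes1. A second model, from 10263 to 12674, lies inside the span of the first on the same strand, so their reads may not have been separated. It had 2.06, 11.2 and 3.09 CPM in Tak-1 and 0.862, 0.553 and 0.789 CPM in Mpbes1. The third, from 30344 to 34472, had 46.3, 92.6 and 47.6 CPM in Tak-1 and 12.6, 10.4 and 12.3 CPM in Mpbes1. All 3 peaked in wild-type plant 2, and every mutant plant lay below every wild-type plant. On scaffold_117 a pair with 1 exon block each was also highest in wild-type plant 2. The gene from 184090 to 185298 had 4.04, 10.1 and 6.44 CPM in Tak-1 and 2.76, 3.95 and 1.63 CPM in Mpbes1. The gene from 190227 to 191819 had 19.7, 52.4 and 29.2 CPM in Tak-1 and 7.5, 8.14 and 6.88 CPM in Mpbes1.

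The short scaffold_633 holds only 2 models, and both were on the list. The first, from 2 to 1633, had 3.45, 9.57 and 7.90 CPM in Tak-1 and 3.45, 3.24 and 3.33 CPM in Mpbes1. The second, from 3788 to 8126, had 3.67, 7.23 and 7.64 CPM in Tak-1 and 1.90, 1.74 and 1.86 CPM in Mpbes1. For both, plant 1 was the low plant in the wild type. The mutant CVs were 3.14% and 4.52%, below the 14.9% and 20.1% that counting error predicts. The mutant plants were thus alike only to within counting error. In all, 5 of the 100 genes lay on scaffolds of at most 5 models, against 1.57% of eligible genes, and plant 1 alone was low in 4 of the 5. The remaining groups were pairs on scaffold_69, scaffold_70 and scaffold_80. The pair on scaffold_69 includes the gene with the largest spread and is separated by a gap of 17017 bases, with 2 other models between. Its second gene, from 1081656 to 1086578, had 25.6, 64.1 and 32.2 CPM in Tak-1 and 18.3, 21.4 and 16.3 CPM in Mpbes1. On scaffold_70 the gene from 758304 to 759723 had 9.33, 17.6 and 10.04 CPM in Tak-1 and 7.76, 7.11 and 5.75 CPM in Mpbes1. Its neighbour on the opposite strand, from 761187 to 763097, had 5.22, 9.18 and 4.29 CPM in Tak-1 and 6.64, 5.30 and 3.04 CPM in Mpbes1. On scaffold_80 the gene from 761850 to 765505 had 21.5, 50.2 and 28.5 CPM in Tak-1 and 38.5, 33.7 and 38.0 CPM in Mpbes1. The gene next to it, from 775123 to 777382, had 7.94, 17.3 and 5.24 CPM in Tak-1 and 4.48, 4.74 and 4.11 CPM in Mpbes1. In all 3 pairs plant 2 was the high wild-type plant, while the mutant pattern matched in the highest plant on scaffold_69 and scaffold_70.

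In structure the 100 genes differed only somewhat from eligible genes. They had a median of 4 exon blocks against 5 and a median exon length of 2078 bases against 2513. Genes with 1 or 2 exon blocks made up 32% against 24.1%, and those with over 10 made up 13% against 22.7%. Genes on the male sex chromosome numbered 0 of the 100, and 24 of the 10370 eligible genes lie there. Overlap with a model on the opposite strand was found for 2 of the 100 and on the same strand for 4, against 5.66% and 2.89% of eligible genes.

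Between the genotypes, the 100 genes were mostly lower in Mpbes1, a comparison that the rule had entered through the 8-fold limit and the wild-type mean, so nothing is read from its count. By the quasi-likelihood test of edgeR, adjusted over 12313 genes after Benjamini and Hochberg, 42 of the 100 fell and 5 rose in the mutant, against 21.1% and 19.3% of all genes tested and 40.4% called in either direction. At least 2-fold changes were 37 falls and 4 rises, against 7.16% and 4.55%. The median log2 fold change was -0.89 over the 100 and 0.01 over eligible genes. In 56 of the 100 the values of the genotypes did not overlap, 51 with Mpbes1 lower and 5 with Mpbes1 higher, against 53% of eligible genes in either direction, 22.1% lower and 30.9% higher. Without Tak-1 plant 2, 41 of the 100 fell and 15 rose, with a median log2 fold change of -0.52, against 36.6% of all genes called in that fit, 2402 falls and 2142 rises of 12414. Left out in turn, Mpbes1 plants 1, 2 and 3 gave 26, 29 and 29 calls in place of 47, and 31.8%, 31.9% and 36% of all genes were called in these fits. Without Tak-1 plant 1 there were 68 calls, 63 of them falls, against 38.7% of all genes tested in that fit.

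No p is given for single genes, because the rule used their Tak-1 values and some passed the 5 CPM limit mainly through plant 2. Among the called genes, the one that rose with the smallest p was Mapoly0056s0138.v3.1, on the plus strand of scaffold_56 from 1243532 to 1245822. It had 33.5, 41.1 and 19.1 CPM in Tak-1 and 187, 170 and 177 CPM in Mpbes1, a log2 difference of 2.46 ± 0.23 (SE). Plant 3 alone was low in the wild type, and the mutant plants lay far above all 3. Mapoly0046s0054.v3.1, on the minus strand of scaffold_46 from 543156 to 549466, fell with the smallest p. It had 4.70, 7.86 and 3.95 CPM in Tak-1 and 1.64, 1.5 and 1.24 CPM in Mpbes1, a log2 difference of -1.97 ± 0.30 (SE). The largest fall was that of Mapoly0126s0001.v3.1, the model inside another on scaffold_126, with a log2 difference of -2.91 ± 0.75 (SE). In each of the 3 genes the genotypes did not overlap, and plant 2 was the highest wild-type plant. In both genes that fell, only plant 2 reached 5 CPM. They passed the limit through that plant, so their differences are descriptions only.

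A gene on scaffold_371 from 9204 to 10636 had 101, 104 and 188 CPM in Tak-1 and 421, 410 and 394 CPM in Mpbes1, a log2 difference of 1.59 ± 0.26 (SE). On scaffold_2 a gene from 3384894 to 3386754 had 56.9, 165 and 116 CPM in Tak-1 and 12.1, 15.6 and 20.9 CPM in Mpbes1, a log2 difference of -2.82 ± 0.45 (SE). For other genes the genotype difference did not pass the test. A gene on scaffold_70 from 130932 to 133992 had 14.5, 33.6 and 11.2 CPM in Tak-1 and 30.2, 27.7 and 32.7 CPM in Mpbes1, a log2 difference of 0.57 ± 0.39 (SE). Its mutant plants were all near wild-type plant 2 and above plants 1 and 3.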

How the data were processed

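Strand-specific mRNA libraries were made from 3 Tak-1 and 3 Mpbes1 plants, per the labels' protocols. The deposited table holds raw counts per gene model, not normalized, and exon lengths in the featureCounts layout, per the file headers. STAR 2.5.2b, featureCounts 1.5.1 and edgeR are named by the submitters' processing notes. How featureCounts treated strand and multiply mapped reads, and which genome build was used, is not given in the sources used here. Reads of overlapping models or near-identical copies may therefore be mixed or lost.

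CPM is the count over the column total times 1e6. The genotype test was edgeR 4.0.16 in R 4.3.3 (filterByExpr, TMM, robust quasi-likelihood fit, genotype as the only term). The spread test took each gene's deviance over the 3 Mpbes1 libraries at edgeR's trended dispersion, on 2 degrees of freedom. Both were tested on simulated data. The genotype test recovered 87.8% of 2-fold and 100% of 4-fold changes. The spread test recovered 127 of 191 genes with a biological CV raised to 0.5, so genes not called may still vary. Of unchanged genes, the genotype test called 8 of 12018 and the spread test 1 of 11474. Calls were made under 0.05 after Benjamini-Hochberg adjustment over all genes tested. Counting CVs assume Poisson error only. Alternatives were DESeq2 1.42.0, other scalings, filters and list sizes, a replicate block and leaving out each library.

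The genes, measures and alternatives were chosen with earlier results of these data known. Genes named by rule are the 20 with the highest Tak-1 CV, neighbours on the list, the smallest p in each direction, the 3 highest Mpbes1 CVs and genes at the limit. Others, the gaps of 1.5 times and the classes cut on the Mpbes1 mean were chosen after the values were seen. Lists of pathway and marker genes could not be filled without gene names.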

Additional observations from a re-analysis of the deposited data

How the results depend on the processing

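Recomputing 9 results gave 82 alternative values, of which 66 stayed within 1.5 times of the reported count or share, or, for the median Mpbes1 CV, within 4.01 percentage points, the SD over left-out Mpbes1 plants. Genes of the list called between genotypes numbered 26 to 68 with 1 library left out, beside 31.8% to 38.7% of all genes tested. Under the other settings they numbered 32 to 63, beside 32.2% to 42.6% of all genes. The filter of at least 5 CPM in 3 libraries left 79 genes of the list to test, of which 36 were called. For the spread in Mpbes1, 10 calls became 22 of 97 at a common dispersion (2.3% of all genes), 5 of 54 with at least 5 CPM in every Mpbes1 library (1.84%), and 2 to 4 with 1 Mpbes1 library left out. The median Mpbes1 CV of the list was 12.4% with counting variance subtracted (3.50% over eligible genes) and 11.5% for a list with at least 20 CPM in Tak-1 (4.93%). It was 9.34% to 17.2% with 1 Mpbes1 library left out, and 13.4% to 19.6% when the list was chosen again without 1 Tak-1 plant. Those lists shared 59, 28 and 73 genes with the reported one, without plants 1, 2 and 3, and 8% to 16% of their genes had a neighbour on the list. In these lists, compared in this way after seeing the data, plant 2 led in 84%, 32% and 85%, plant 1 was lowest in 41%, 54% and 82%, and the highest plants had equal numbers in 38%, 53% and 36%. A list chosen without 1 plant takes genes in which the remaining plants differ, which helps to set these shares. Plant 2 led in 77% with TMM scaling, 77% at 20 CPM or more and 74.5% of the top 200. The causes of these changes were not tested. The labels do not say that replicate numbers pair the plants, and the numbers were not used as pairs because not every same-numbered correlation was over 0.1. Same-numbered deviations correlated at 0.17, -0.03 and 0.14, and 4 of 6 libraries had their highest correlation with the same number. With the replicate block, 63 genes of the list were called, 46 of them among the 47, and 5246 over all genes. Depth limits statements on levels below 0.259 CPM.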

Other observations

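The 8-fold limit kept 138 genes with at least 5 CPM in Tak-1 out of the eligible set, 125 of them lower in Mpbes1. Their median Tak-1 CV was 21.6%, against 8.01% over eligible genes. As variable as the 100 genes, at or above their lowest CV, were 34 of the 138, and plant 2 was the highest wild-type plant in 23 of these, plant 3 in 8 and plant 1 in 3. Of the 34, 33 were lower in the mutant.

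The 100 eligible genes with the highest CV over Mpbes1, all at or above 34.9%, were led by plant 3 in 66, by plant 2 in 18 and by plant 1 in 16. Their median level in Mpbes1 was 4.69 CPM. In Tak-1 their median CV was 23.7%, 67 of them lay in the top 10% of Tak-1 CV, and plant 2 was the highest wild-type plant in 66. The largest spread after the gene already described on scaffold_54 was that of its neighbour, from 1216070 to 1219880, with 1.29, 1.5 and 6.82 CPM in Mpbes1 and 13.4, 25.7 and 18.6 CPM in Tak-1. These values are descriptions of genes chosen by their spread in Mpbes1.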
